A study of Mus musculus with 15 samples.

Results

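The genes described here encode 10 transcription factors that direct the formation of blood lineages, namely Spi1, Cebpa, Cebpb, Cebpe, Gfi1, Runx1, Tal1, Gata2, Gata1 and Gfi1b. They were taken by name for their known roles, not by their values, and are 10 of the 45706 genes counted. As background, such factors bind DNA beside one another, raise the genes of their own lineage and repress those of others. Spi1 encodes PU.1, which drives macrophage, granulocyte and B cell genes and is known to oppose GATA1. Cebpa commits progenitors to granulocytes and monocytes, Cebpb serves granulocyte production under stress, Cebpe acts in late granulocyte maturation, and Gfi1 is a repressor needed for neutrophils. Runx1 is required for the emergence of blood stem cells and for platelet-forming megakaryocytes. Gata2 acts in stem cells, mast cells and basophils, and gives way to Gata1 as red cells mature, with Tal1 and the repressor Gfi1b as further factors of the erythroid and megakaryocytic lineages.

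RNA came from lineage-negative bone marrow cells, which are marrow cells depleted with magnetic beads of those bearing surface markers of mature lineages, from the femurs of secondary recipient mice. LSK cells, a population enriched for stem and progenitor cells, from donors on a C57BL/6J background that carried CD45.2 had been moved into lethally irradiated CD45.1 recipients and then serially into further recipients, so that all groups share irradiation and 2 transplantations, and host cells may remain among those sequenced. Of the 15 libraries, 3 were labelled WT, 4 Puma-/- (a deletion in every cell of the gene of the pro-apoptotic protein PUMA, listed as Bbc3), 4 G3 mTerc-/-Puma+/+ (generation 3 of mice without the telomerase RNA Terc) and 4 G3 mTerc-/-Puma-/-. The comparisons ask whether the factors' transcripts differ with telomerase loss, with PUMA loss, and with both. Per the study's methods, all donors were young adults, cells went on to secondary recipients some weeks after the first transplantation, and recipients were killed when they showed signs of disease or at a fixed end point. Which of these ended each mouse, and whether animals were pooled, are not given in the sources used here, so p-values measure only the spread between these libraries.

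The libraries held 102790519 to 158367059 counts, and levels are given as normalized CPM, that is, CPM after edgeR's TMM scaling of each library's total count. Bbc3 was at 9.71 to 23.6 normalized CPM in WT, 5.04 to 6.83 in Puma-/-, 11.8 to 20.8 in G3 mTerc-/-Puma+/+ and 13.5 to 17.1 in the replicates labelled G3 mTerc-/-Puma-/-, so that it was not low where the last label says Puma-/-, and every direction drawn from those libraries rests on the label. Terc had at most 1 count in each of the 8 mTerc-/- libraries and 4 to 17 in the others. The groups also differed in sex-linked transcripts, with Xist at 466 to 868 in Puma-/-, 1.73 to 418 in WT, 0.177 to 89.0 in G3 mTerc-/-Puma+/+ and 0.388 to 663 in the replicates labelled G3 mTerc-/-Puma-/-. The Y-linked Ddx3y was at 0.0178 to 0.0448 in Puma-/- and 21.3 to 43.2 in WT. It was at 42.8 to 48.3 in G3 mTerc-/-Puma+/+ and 2.88 to 46.0 in the replicates labelled G3 mTerc-/-Puma-/-. Neither transcript overlapped between Puma-/- and G3 mTerc-/-Puma+/+, or between Puma-/- and WT. In both of these comparisons sex-linked differences thus cannot be told apart from genotype. Ddx3y, but not Xist, was also without overlap between Puma-/- and the replicates labelled G3 mTerc-/-Puma-/-. The progenitor genes Kit, a stem cell factor receptor, and Mpo, myeloperoxidase, were at 114 to 165 and at 6969 to 12271 normalized CPM in the 14 libraries compared. Replicate 2 labelled G3 mTerc-/-Puma-/- stands apart from the other 14 libraries, is not drawn in the study's heatmap and was left out of the comparisons, but its value is given for every factor, together with fits over all 15 libraries.

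All 10 factors passed the filter on low counts, with at least 579 counts in each library. On GRCm38, Spi1 (ENSMUSG00000002111) lies on chromosome 2 from 91082390 to 91115756, Cebpa (ENSMUSG00000034957) on chromosome 7 from 35119293 to 35121928, with 51 exonic bases shared with Gm45091 on the opposite strand, and Cebpe (ENSMUSG00000052435) on chromosome 14 from 54710360 to 54712174. Cebpb (ENSMUSG00000056501, chromosome 2, 167688915 to 167690418) shares 312 bases, 20.7% of its exonic length, with exons of Tmem189 on the opposite strand, which had 3513 to 5972 counts, and since the strand setting of the counting is not given, reads of the 2 genes may not have been told apart there. Gfi1 (ENSMUSG00000029275) lies on chromosome 5 from 107716657 to 107726036 and shares 101 exonic bases with A430072P03Rik, and Runx1 (ENSMUSG00000022952) on chromosome 16 from 92601466 to 92826149 shares 106 of 12025 exonic bases with Gm26626, both on the opposite strand. Tal1 (ENSMUSG00000028717) lies on chromosome 4 from 115056426 to 115071755, Gata2 (ENSMUSG00000015053) on chromosome 6 from 88193891 to 88207032, Gata1 (ENSMUSG00000031162) on chromosome X from 7959260 to 7978071, and Gfi1b (ENSMUSG00000026815) on chromosome 2 from 28609450 to 28621982. The 10 genes are protein-coding, and the intervals span their annotated exons and introns.

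Compared per length, as median normalized CPM per kilobase of exon over the 14 libraries, Spi1 was highest at 104.4 and Cebpa next at 68.4. They were followed by Cebpe at 53.3, Gfi1 at 42.6, Gata2 at 23.4, Cebpb at 14.9, Runx1 at 9.19, Tal1 at 8.65, Gfi1b at 7.05 and Gata1 at 6.11 on the same per-length scale. Spi1 was separated from its neighbour in this order, with its lowest library at 86.2 and the highest library of Cebpa at 79.0, while the library ranges of every other pair of neighbours overlapped. Spi1, Cebpa, Cebpe and Gfi1 thus had higher medians than the 4 erythroid and megakaryocytic factors in these cells, with Spi1 over Gata1 in each of the 15 libraries. Spread between the 14 libraries differed among the factors, with a highest to lowest ratio of 1.36 for Runx1, 1.36 for Cebpa and 1.41 for Spi1, and of 2.95 for Gata1 and 3.69 for Gfi1b.

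**Figure D1:**
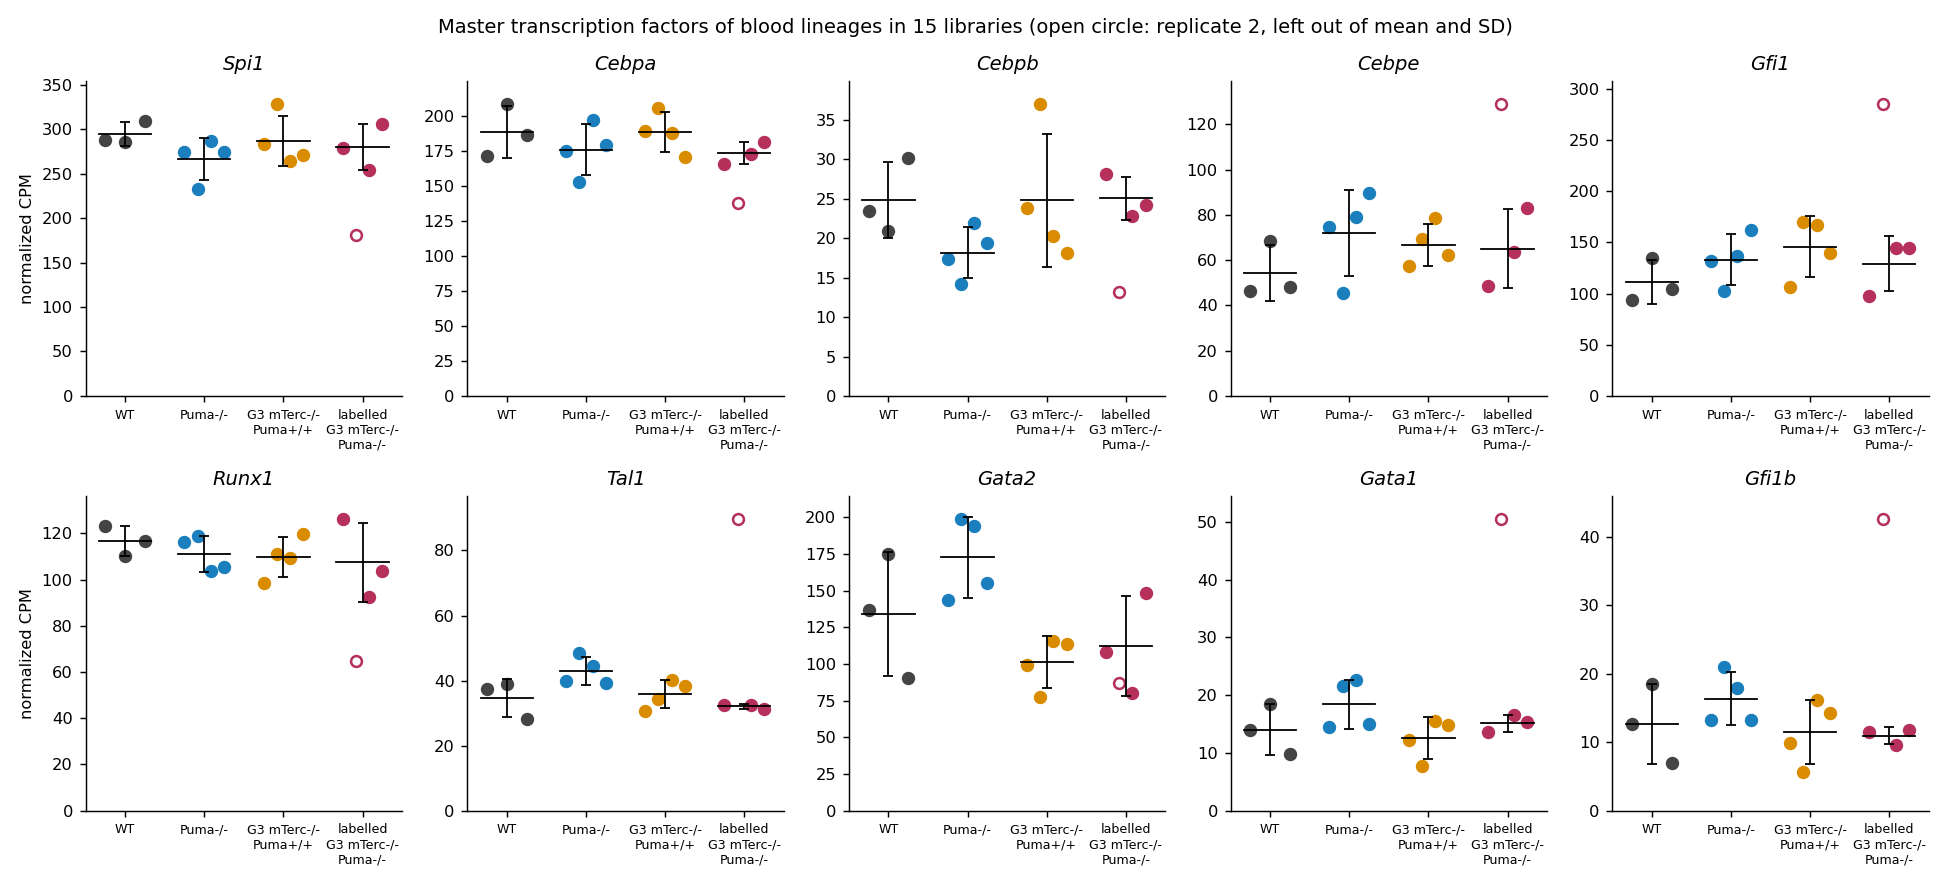
Normalized CPM of each factor (vertical axes from 0) in every library, by genotype as labelled. Lines and bars are the mean and SD of the filled points. The open circle is replicate 2 labelled G3 mTerc-/-Puma-/-, which lies above every other library for Cebpe, Gfi1, Tal1, Gata1 and Gfi1b and below every other for Spi1, Cebpa, Cebpb and Runx1.

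The granulocyte and monocyte factors Spi1, Cebpa, Cebpb, Cebpe and Gfi1 did not pass edgeR's test in any comparison. Spi1 was at 288, 285 and 309.5 normalized CPM in WT and at 274, 232, 287 and 274 in Puma-/-. Levels of Spi1 were 284, 328, 264 and 271 in G3 mTerc-/-Puma+/+, 279, 254 and 306 in replicates 1, 3 and 4 labelled G3 mTerc-/-Puma-/-, and 181 in replicate 2. The groups overlapped, the mean being 294 ± 13.2 (SD, n = 3) for WT and 267 ± 23.8 (SD, n = 4) for Puma-/-. For G3 mTerc-/-Puma+/+ it was 287 ± 28.6 (SD, n = 4), and for the replicates labelled G3 mTerc-/-Puma-/- 279.9 ± 26.1 (SD, n = 3). Cebpa was at 171, 208 and 186 normalized CPM in WT and at 175, 153, 197 and 179 in Puma-/-. Levels of Cebpa were 189, 206, 188 and 171 in G3 mTerc-/-Puma+/+, 166, 173 and 181 in replicates 1, 3 and 4 labelled G3 mTerc-/-Puma-/-, and 138 in replicate 2. Cebpa was likewise nearly level, with group means between 173 and 189 and log2 fold changes between -0.12 and 0.10 over the 6 comparisons of 2 genotypes. Replicate 2 gave the lowest value of the 15 libraries for both genes.

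Cebpb was at 23.5, 20.9 and 30.2 normalized CPM in WT and at 17.3, 14.2, 21.9 and 19.3 in Puma-/-. Levels of Cebpb were 23.9, 37.0, 20.3 and 18.2 in G3 mTerc-/-Puma+/+, 28.1, 22.8 and 24.2 in replicates 1, 3 and 4 labelled G3 mTerc-/-Puma-/-, and 13.2 in replicate 2. The highest value, in G3 mTerc-/-Puma+/+ replicate 2, exceeded the other libraries of that genotype, of which replicates 3 and 4 lay within the Puma-/- range. Cebpb was at 18.2 ± 3.26 in Puma-/- (SD, n = 4) and at 24.8 ± 8.44 in G3 mTerc-/-Puma+/+ (n = 4), giving a log2 fold change of 0.45 with an SE of 0.205 (adjusted p = 0.284) by edgeR's quasi-likelihood method (Benjamini-Hochberg adjusted over all genes). Without G3 mTerc-/-Puma+/+ replicate 2 it was 0.20. Its 3 replicates labelled G3 mTerc-/-Puma-/- lay above all 4 of Puma-/-, with a log2 fold change of 0.46 with an SE of 0.220 (adjusted p = 0.604) in the same edgeR test and of 0.28 over all 15 libraries, where the groups overlapped. The bases shared with Tmem189 apply to each of these values.

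Cebpe was at 46.2, 68.6 and 48.4 normalized CPM in WT and at 74.7, 45.4, 79.0 and 89.9 in Puma-/-. Levels of Cebpe were 57.3, 69.3, 78.6 and 62.1 in G3 mTerc-/-Puma+/+, 48.4, 63.8 and 83.1 in replicates 1, 3 and 4 labelled G3 mTerc-/-Puma-/-, and 129 in replicate 2. WT replicate 2 lay apart from the other WT libraries, and Puma-/- replicate 2 was the lowest of all. Gfi1 was at 93.4, 135 and 104 normalized CPM in WT and at 132, 102, 136 and 162 in Puma-/-. Levels of Gfi1 were 106, 169.8, 167 and 139.5 in G3 mTerc-/-Puma+/+, 97.9, 144 and 144 in replicates 1, 3 and 4 labelled G3 mTerc-/-Puma-/-, and 285 in replicate 2. The library order of Gfi1 was near that of Cebpe, with WT replicate 1 and replicate 1 labelled G3 mTerc-/-Puma-/- at the low end. Against WT, the log2 fold changes of Cebpe were 0.41 with an SE of 0.228 (adjusted p = 0.561) in Puma-/- and 0.30 with an SE of 0.227 (adjusted p = 0.998) in G3 mTerc-/-Puma+/+, and those of Gfi1 were 0.26 with an SE of 0.198 (adjusted p = 0.672) and 0.39 with an SE of 0.199 (adjusted p = 0.998) (edgeR's quasi-likelihood test). Neither gene passed, and all groups overlapped.

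Runx1 was at 123, 110.1 and 117 normalized CPM in WT and at 116, 119, 104 and 106 in Puma-/-. Levels of Runx1 were 98.5, 111, 109.5 and 119.7 in G3 mTerc-/-Puma+/+, 126, 92.6 and 104 in replicates 1, 3 and 4 labelled G3 mTerc-/-Puma-/-, and 65.0 in replicate 2. It was among the steadiest of the factors, with log2 fold changes from -0.12 to -0.019 over the 6 comparisons and a smallest adjusted p of 0.837 in edgeR's test. Replicate 1 labelled G3 mTerc-/-Puma-/- held the highest value and replicate 2 the lowest.

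Of the erythroid, megakaryocytic and mast cell factors, Gata2 had the largest difference between genotypes in the fit of 14 libraries, while over all 15 Gata1 between the mTerc-/- groups was larger. Gata2 was at 137, 175 and 90.7 normalized CPM in WT and at 144, 199, 194 and 155 in Puma-/-. Levels of Gata2 were 99.5, 77.2, 116 and 114 in G3 mTerc-/-Puma+/+, 108, 79.9 and 148 in replicates 1, 3 and 4 labelled G3 mTerc-/-Puma-/-, and 86.8 in replicate 2. Every Puma-/- library lay above every G3 mTerc-/-Puma+/+ library, and WT spanned most of the range of both. Gata2 was at 173 ± 27.7 normalized CPM in Puma-/- (SD, n = 4) and 102 ± 17.8 in G3 mTerc-/-Puma+/+ (n = 4), 0.587 times the Puma-/- level, with a log2 fold change of -0.77 with an SE of 0.216 (adjusted p = 0.101) in edgeR's quasi-likelihood test and an exact two-sided permutation p = 0.0286, the smallest that 4 against 4 libraries allow. It thus did not pass over all genes tested. With DESeq2 it did, at an adjusted p = 0.0150, and over the alternatives the adjusted p ran from that to 0.443, the latter with the Xist level as a covariate, where the log2 fold change was -0.39. Puma-/- libraries were high and G3 mTerc-/-Puma+/+ libraries low in Xist without overlap, and the reverse held for Ddx3y. The covariate therefore cannot separate sex-linked differences from genotype here, and their part in the difference was not tested. In bulk RNA, fewer cells of a type and less RNA per cell cannot be told apart.

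In the replicates labelled G3 mTerc-/-Puma-/-, Gata2 was at 112 ± 34.2 (SD, n = 3), a log2 fold change of -0.62 with an SE of 0.236 (adjusted p = 0.462) against Puma-/- in edgeR's test and of -0.71 (adjusted p = 0.332) over all 15 libraries. Replicate 4 lay within the Puma-/- range, so the groups overlapped, and without that replicate the log2 fold change was -0.88. The comparisons of both mTerc-/- groups with Puma-/- share the Puma-/- libraries.

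Tal1 was at 37.3, 38.9 and 28.1 normalized CPM in WT and at 39.8, 48.6, 44.4 and 39.4 in Puma-/-. Levels of Tal1 were 30.7, 34.3, 40.2 and 38.5 in G3 mTerc-/-Puma+/+, 32.4, 32.6 and 31.2 in replicates 1, 3 and 4 labelled G3 mTerc-/-Puma-/-, and 89.7 in replicate 2. The 4 Puma-/- libraries all exceeded those of WT for Tal1, by 1.24-fold in the mean, with a log2 fold change of 0.31 with an SE of 0.121 (adjusted p = 0.437) in edgeR's test and an exact two-sided permutation p = 0.0286, the smallest that 3 against 4 libraries allow. The 3 replicates labelled G3 mTerc-/-Puma-/- that were compared lay at 32.0 ± 0.750 (SD, n = 3), close to one another and under all 4 Puma-/- libraries at 43.1 ± 4.33 (n = 4), with a log2 fold change of -0.43 with an SE of 0.121 (adjusted p = 0.237). Replicate 2 was the highest of all libraries, and with it the value was 0.11 (adjusted p = 0.957 in edgeR). The direction of Tal1 in this comparison thus rested on whether replicate 2 entered.

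Gata1 was at 13.9, 18.4 and 9.75 normalized CPM in WT and at 14.5, 21.6, 22.6 and 14.9 in Puma-/-. Levels of Gata1 were 12.3, 7.65, 15.5 and 14.9 in G3 mTerc-/-Puma+/+, 13.6, 16.6 and 15.3 in replicates 1, 3 and 4 labelled G3 mTerc-/-Puma-/-, and 50.5 in replicate 2. Replicate 2 apart, the libraries lay within a 2.95-fold range, and all groups overlapped. Gata1 was at 18.4 ± 4.28 in Puma-/- (SD, n = 4) and 12.6 ± 3.56 in G3 mTerc-/-Puma+/+ (n = 4), giving a log2 fold change of -0.55 with an SE of 0.237 (adjusted p = 0.254) in edgeR's test. As Gata1 is X-linked, it was also fitted with the Xist level as a covariate, where this value was -0.34 (adjusted p = 0.726 in edgeR). Against G3 mTerc-/-Puma+/+, the replicates labelled G3 mTerc-/-Puma-/- had a log2 fold change of 0.27 with an SE of 0.254 (adjusted p = 0.955) without replicate 2 and of 0.93 (SE 0.387, adjusted p = 0.420) with it.

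Gfi1b was at 12.6, 18.5 and 6.92 normalized CPM in WT and at 13.2, 21.1, 18.0 and 13.2 in Puma-/-. Levels of Gfi1b were 9.95, 5.70, 16.1 and 14.3 in G3 mTerc-/-Puma+/+, 11.6, 9.53 and 11.9 in replicates 1, 3 and 4 labelled G3 mTerc-/-Puma-/-, and 42.6 in replicate 2. WT replicate 3 and G3 mTerc-/-Puma+/+ replicate 2 were the lowest, as for Gata1. In the replicates labelled G3 mTerc-/-Puma-/-, Gfi1b was at 11 ± 1.27 (SD, n = 3), under all 4 Puma-/- libraries at 16.4 ± 3.84 (n = 4), with a log2 fold change of -0.58 with an SE of 0.347 (adjusted p = 0.718) in edgeR's test. With replicate 2, which was the highest of all, it was 0.21 (adjusted p = 0.949).

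Gfi1b, Gata1, Gata2 and Tal1 varied together between libraries, and Gfi1 with Cebpe, and whether promoter letters bear on this was not tested. The 250 bases before a RefSeq start site on GRCm38.p6 are shown for Gfi1b, Tal1, Gata1 and Gfi1. They run 5′ to 3′ on the strand of the gene, with matches to the searched motifs in capitals. The windows of Gata2 are not printed and held no GATA motif.
Gfi1b, chr2:28621983-28622232 (minus strand): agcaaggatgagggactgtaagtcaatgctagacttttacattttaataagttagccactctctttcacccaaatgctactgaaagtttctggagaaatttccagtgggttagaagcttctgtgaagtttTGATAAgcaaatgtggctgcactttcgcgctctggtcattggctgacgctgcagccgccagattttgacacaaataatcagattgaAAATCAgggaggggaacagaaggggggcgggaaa
Tal1, chr4:115056176-115056425 (plus strand): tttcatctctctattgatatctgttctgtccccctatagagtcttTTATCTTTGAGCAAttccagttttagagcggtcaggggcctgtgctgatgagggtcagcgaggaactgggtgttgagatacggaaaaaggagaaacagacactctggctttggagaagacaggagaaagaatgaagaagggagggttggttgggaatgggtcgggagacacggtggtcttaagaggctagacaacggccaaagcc
Gata1, chrX:7967911-7968160 (minus strand): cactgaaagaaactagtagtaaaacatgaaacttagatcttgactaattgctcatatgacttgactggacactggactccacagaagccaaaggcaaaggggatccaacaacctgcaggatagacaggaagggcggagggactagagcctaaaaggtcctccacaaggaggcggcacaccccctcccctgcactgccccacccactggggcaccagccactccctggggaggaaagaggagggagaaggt
Gfi1, chr5:107725806-107726055 (minus strand): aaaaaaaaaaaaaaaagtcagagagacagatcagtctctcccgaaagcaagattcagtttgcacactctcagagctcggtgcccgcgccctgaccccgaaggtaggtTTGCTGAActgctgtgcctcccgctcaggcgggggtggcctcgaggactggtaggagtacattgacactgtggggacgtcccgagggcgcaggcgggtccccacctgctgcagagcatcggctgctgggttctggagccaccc
The motifs searched on both strands, from 250 bases before to 50 after each start, were AGATAA and TGATAA for GATA factors, GAGGAAGT for PU.1, TGTGGT for RUNX, TTGCNNAA for C/EBP, CAGCTG and CAGATG for E-boxes, and AAATCA for GFI1. Positions are counted from 0 at the first transcribed base. The Gfi1b sequence holds TGATAA from -120 to -115 and AAATCA from -34 to -29. That of Tal1 holds AGATAA on the reverse strand from -205 to -200, directly beside TTGCNNAA on the reverse strand from -199 to -192, and CAGATG on the reverse strand at 10 to 15, past the bases printed. Gfi1 holds TTGCNNAA from -143 to -136, and Gata1 none of the motifs in this window. The second windows of Tal1 and Gfi1, at other start sites, also held none, and Cebpe and Spi1 had no window in the table. Of the 8 factors with a window in the table (12 windows), 5 had a match, the others being Runx1 with TGTGGT on the reverse strand at 28 and 36 and Gata2 with CAGCTG at 17, a sequence that reads the same on both strands. Over the 32851 windows of this length, 18.6% held either GATA motif, 3.20% GAGGAAGT, 16.8% TGTGGT, 10.8% TTGCNNAA, 16.3% CAGCTG, 17.2% CAGATG and 14% AAATCA. These shares are for single motifs or families. The share of windows with a match to any of them was not computed, so they cannot be set beside the 5 of 8 factors. A match is a description of the letters and not of binding.

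Over the 7 comparisons made, 0 of the 10 factors passed an adjusted p of 0.05 in edgeR's quasi-likelihood test. The share of all 18983 genes that passed was 0.0790% for Puma-/- against WT, 0.0369% for G3 mTerc-/-Puma+/+ against WT and 0.0632% for the replicates labelled G3 mTerc-/-Puma-/- against WT. It was 0.801% for G3 mTerc-/-Puma+/+ against Puma-/-, 0.306% for the replicates labelled G3 mTerc-/-Puma-/- against Puma-/-, 0.0738% for them against G3 mTerc-/-Puma+/+, and 0.0527% for the interaction, which is the difference between the mTerc effect without and with PUMA. At an unadjusted p under 0.05, 4 of 10 factors stood out between G3 mTerc-/-Puma+/+ and Puma-/-, beside 17.1% of all genes. These were Gata2, Tal1 (log2 value -0.26 with an SE of 0.112 (adjusted p = 0.251) in edgeR) and Gata1, all lower in G3 mTerc-/-Puma+/+, and Cebpb, which was higher. Tal1 and Gata2 did so between the replicates labelled G3 mTerc-/-Puma-/- and Puma-/-, beside 8.42% of all genes. Tal1 alone did between Puma-/- and WT, beside 10.1% of genes, and in the interaction, beside 4.93%. The edgeR interaction of Tal1 was -0.47 with an SE of 0.171 (adjusted p = 0.855) on the log2 scale over 14 libraries and 0.062 over 15. In the other 3 comparisons 0 factors had an unadjusted p under 0.05, beside 3.86%, 5.45% and 6.22% of genes, in the order given above. Over all 15 libraries 0 factors were called in edgeR, beside 0.0679%, 0.0209%, 0.0418%, 0.125%, 0.308%, 0.0313% and 0.0470% of 19146 genes for the comparisons in the same order. The factors with an unadjusted p under 0.05 were then Gata2 in G3 mTerc-/-Puma+/+ (beside 12.6% of genes) and in the replicates labelled G3 mTerc-/-Puma-/- (beside 7.48%) against Puma-/-, and Gata1 between the mTerc-/- groups (beside 10.2%). There were 0 such factors in the comparisons of Puma-/-, G3 mTerc-/-Puma+/+ and the replicates labelled G3 mTerc-/-Puma-/- with WT, beside 6.10%, 2.48% and 8.80% of genes, and in the interaction, beside 3.18%. Limma-voom called 0 of the factors in any comparison and DESeq2 1, the value of Gata2 given above.

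The libraries of the 2 genotypes did not overlap for 1 of 10 factors between Puma-/- and WT (Tal1, beside 9.70% of all genes), for 1 between G3 mTerc-/-Puma+/+ and Puma-/- (Gata2, beside 10.8%) and for 3 between the replicates labelled G3 mTerc-/-Puma-/- and Puma-/- (Cebpb, Gfi1b and Tal1, beside 9.57%). In the comparisons of both mTerc-/- groups with WT and with each other, 0 of 10 were without overlap, beside 4.07%, 8.51% and 5.56% of genes. The median log2 fold change of the 10 factors was 0.29 between Puma-/- and WT, where that of all genes was 0.0048, and lay between -0.100 and -0.0205 in the other 5 comparisons of 2 genotypes. Between Puma-/- and WT 6 of the 10 factors were above 0. Cebpa, Cebpb, Spi1 and Runx1 were below 0, with Cebpb at -0.45, so the factors did not shift together.

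**Figure D2:**
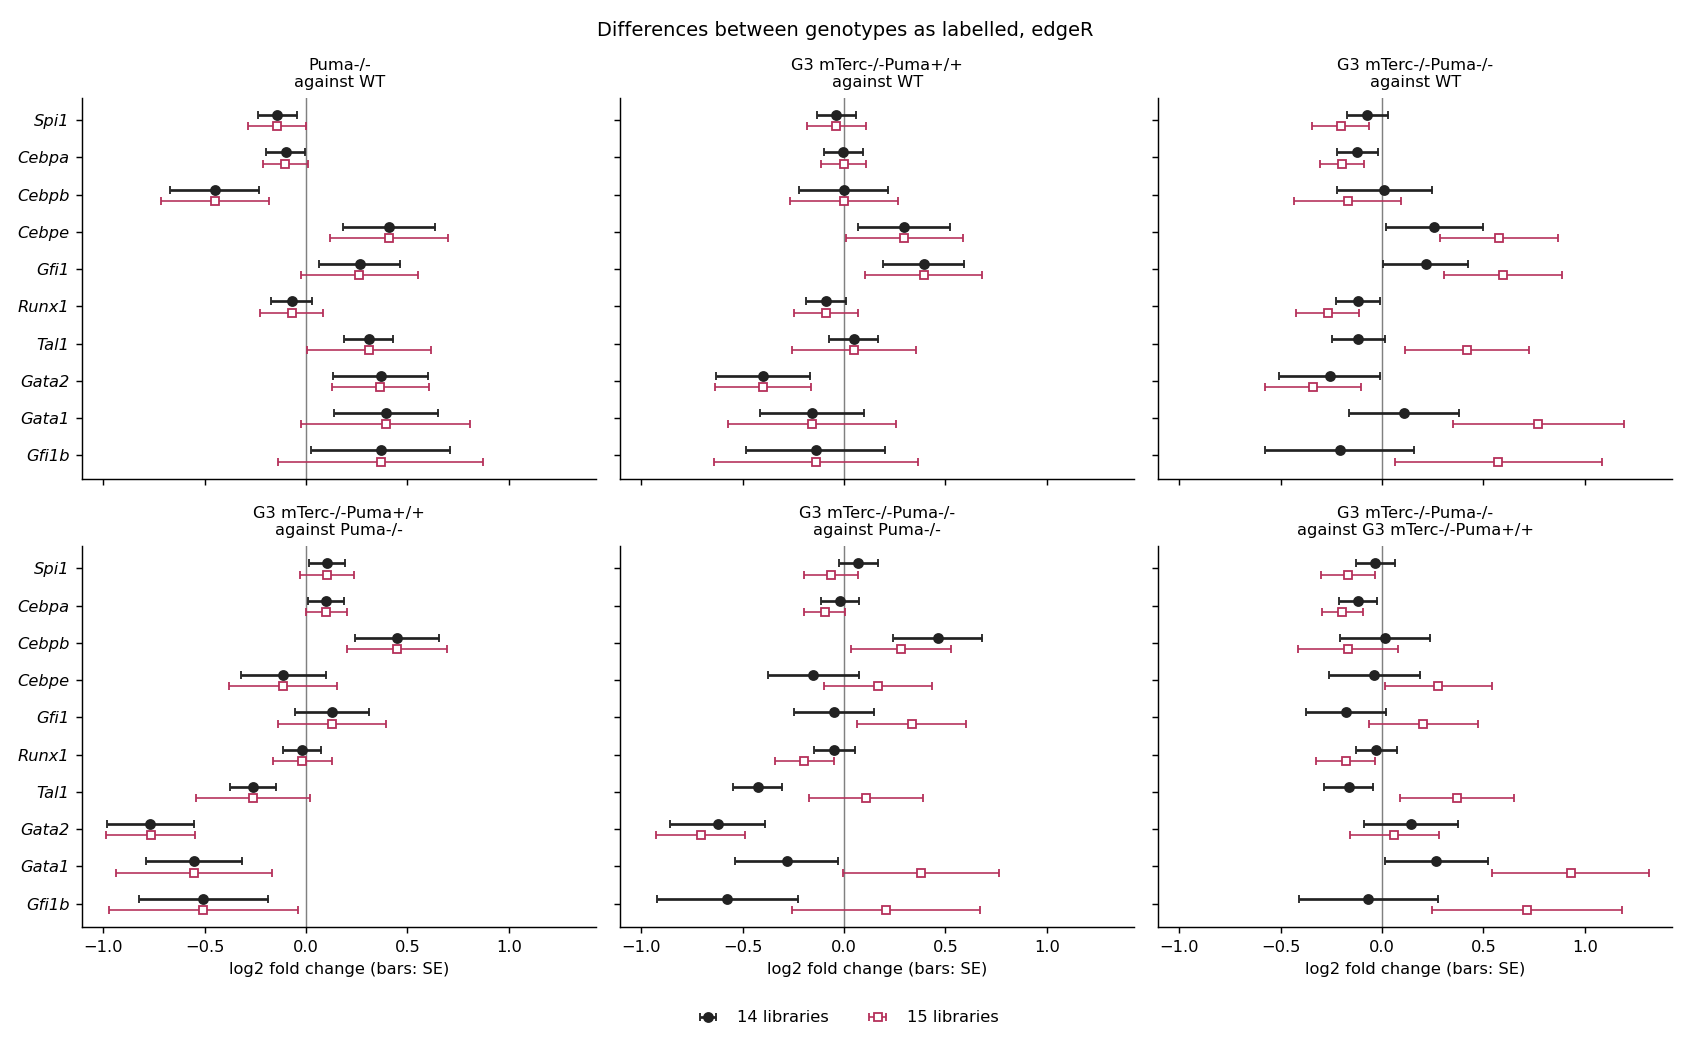
Log2 fold change (horizontal axes) of each factor in the 6 comparisons of 2 genotypes as labelled, with the SE of edgeR's fit as bars. Filled circles are fits of 14 libraries and open squares fits of all 15. No value passed an adjusted p of 0.05, and the 15-library values of Tal1, Gata1 and Gfi1b lie to the right of the 14-library values wherever the replicates labelled G3 mTerc-/-Puma-/- enter.

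Of the 45 pairs, 15 had a Pearson correlation of log2 normalized CPM over the 14 libraries that passed an adjusted p of 0.05 (two-sided permutation test, Benjamini-Hochberg over the 45 pairs). The closest pair was Gata1 and Gfi1b, with r = 0.912 (adjusted permutation p = 0.00045, from the smallest p that 100000 permutations can give) and Spearman's rho = 0.780 (adjusted permutation p = 0.0145). Gfi1b also followed Gata2 (r = 0.859, rho = 0.873, adjusted permutation p = 0.00180 and 0.00540) and Tal1 (r = 0.791, rho = 0.833, adjusted permutation p = 0.00559 and 0.00832). The granulocyte factors Cebpe and Gfi1 formed a pair of their own (r = 0.872, rho = 0.758, adjusted permutation p = 0.00225 and 0.0168). Without the 2 libraries farthest from the median of the first gene, r was 0.768 for Gfi1b with Gata1, 0.815 with Gata2 and 0.886 with Tal1, and 0.814 for Cebpe with Gfi1, and each passed again.

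The pairs of a myeloid with an erythroid factor that passed were all negative. Spi1 and Gata1 had r = -0.694 (adjusted permutation p = 0.0234) and rho = -0.499 (adjusted permutation p = 0.184), and without Puma-/- replicate 2 and G3 mTerc-/-Puma+/+ replicate 2, the 2 farthest libraries, r was -0.337 (adjusted permutation p = 0.474), so that this relation rested on those libraries. Cebpb was lower where Gfi1b was higher (r = -0.835, rho = -0.798, adjusted permutation p = 0.00292 and 0.0112), with r = -0.648 (adjusted permutation p = 0.0997) over the 12 libraries without the same 2, which did not pass. Cebpb was higher where Spi1 was higher (r = 0.823, rho = 0.767, adjusted permutation p = 0.00420 and 0.0145), with r = 0.553 (adjusted permutation p = 0.187) over those 12, which did not pass either. The other pairs that passed were Cebpa with Spi1 (r = 0.682), Gata1 with Gata2 (r = 0.781) and with Tal1 (r = 0.680), Gata2 with Tal1 (r = 0.734), Gfi1b with Spi1 (r = -0.657), and Cebpb with Gata1, Gata2 and Tal1 (r = -0.772, -0.678 and -0.737). The adjusted permutation p of these 8 pairs lay between 0.00420 and 0.0334. Their rho was 0.547, 0.727, 0.675, 0.701, -0.473, -0.613, -0.635 and -0.798 in that order, with adjusted permutation p between 0.0112 and 0.201. Without the 2 farthest libraries, Gata1 with Tal1 (r = 0.730, adjusted permutation p = 0.0475) and Cebpb with Tal1 (r = -0.767, adjusted permutation p = 0.0326) passed again, while the other 6 had r from -0.486 to 0.705 and did not.

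As deviations from the genotype means, 5 pairs passed, namely Cebpb with Spi1, Cebpe with Gfi1, Gfi1b with Gata1 and Gata2, and Gata1 with Gata2. Over all 15 libraries 21 pairs passed, with Gfi1b and Gata1 at r = 0.950, while Gata2 parted from its group, with r = 0.250 to Gata1 and 0.118 to Tal1. Runx1 passed with 0 of the other factors over the 14 libraries.

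**Figure D3:**
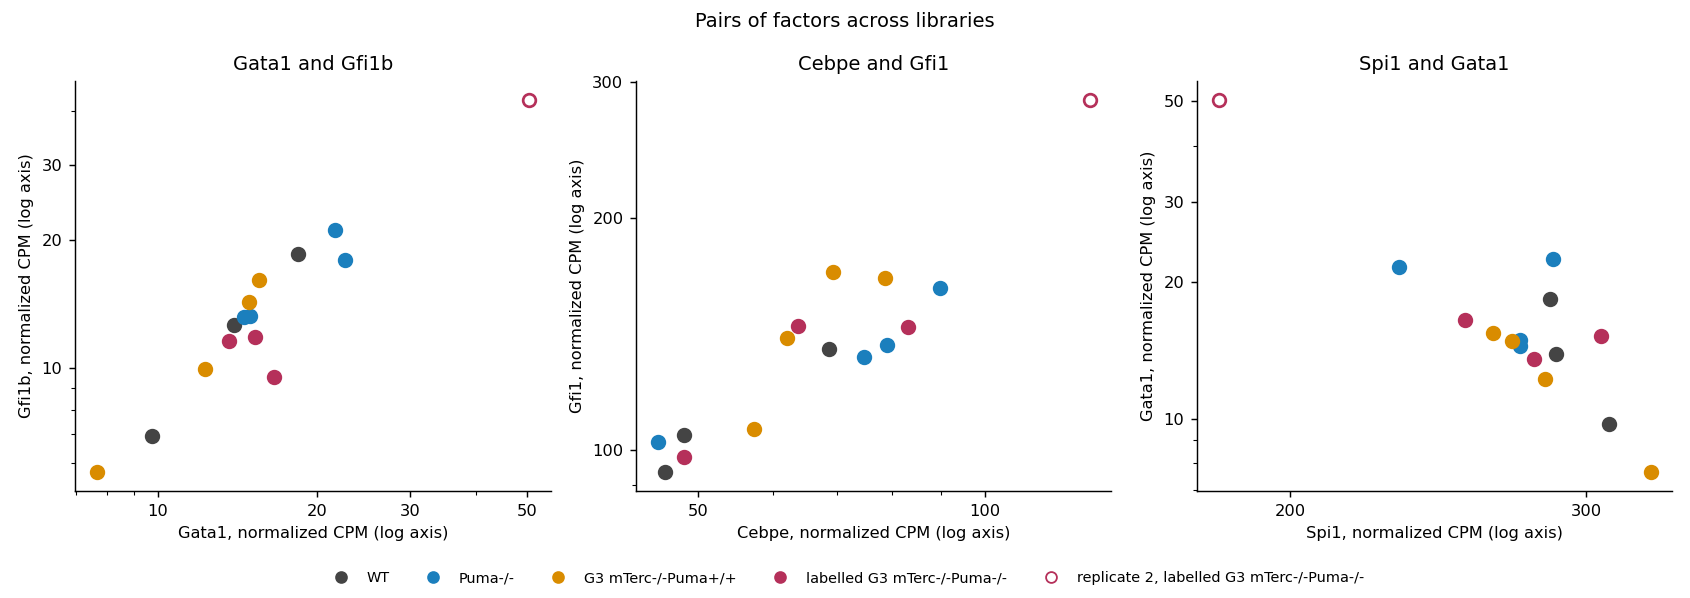
Normalized CPM of 3 pairs of factors on log axes, 1 point per library, coloured by genotype as labelled, with replicate 2 as the open circle. Over the 14 filled points r was 0.912 for Gata1 and Gfi1b, 0.872 for Cebpe and Gfi1 and -0.694 for Spi1 and Gata1, and replicate 2 lies at the end of each.

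The genes whose log2 levels were most like each factor were read from all tested genes over the 14 libraries as a description, without a test. For Gata2 these were Hyi (r = 0.967), Ms4a2 (r = 0.937), a chain of the IgE receptor of mast cells and basophils, and Prss34 (r = 0.929), a basophil protease. Cebpe was most like Pglyrp1 (r = 0.956), a granule protein of neutrophils, G0s2 (r = 0.919) and Ptgs1 (r = 0.915), and Gfi1 was most like Alas1 (r = 0.942), Tmem53 (r = 0.942) and Plin3 (r = 0.936). Gata1 and Gfi1b shared Dmwd as the nearest gene (r = 0.954 and 0.950), followed for Gata1 by Ctxn1 (r = 0.932) and Dok2 (r = 0.922). Tal1 was most like Slc18a2 (r = 0.963), Robo3 (r = 0.928) and Hlf (r = 0.923), a factor of stem cells. Spi1 was nearest to Map2k3 (r = 0.940), Cebpb to Ftl1 (r = 0.953), Cebpa to H13 (r = 0.934) with Lyl1, a paralog of Tal1, at 0.899, and Runx1 to Gm36527 (r = 0.881).

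In replicate 2 labelled G3 mTerc-/-Puma-/-, 9 of the 10 factors lay outside the range of the other libraries. Gata1 was at 50.5 normalized CPM there and at 7.65 to 22.6 in the other 14 libraries, 3.39 times their median, and Gfi1b was at 42.6 against 5.70 to 21.1, 3.30 times. Tal1, Gfi1 and Cebpe were at 2.37, 2.10 and 1.95 times the median and above all 14. Runx1, Cebpb, Spi1 and Cebpa were at 0.588, 0.589, 0.644 and 0.765 times and below all 14, and Gata2, at 0.688 times, was within their range. Beside these 9 of 10 factors, 46.5% of all tested genes lay outside the range, 22.4% above and 24.0% below. The next library by this measure, G3 mTerc-/-Puma+/+ replicate 2, was highest or lowest of the 15 for 5 factors and for 28.3% of genes.

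The ratio of Gata1 to Gata2, per length, was 1.29 in replicate 2 and 0.213 to 0.459 in the others, and that of Gata1 to Spi1 was 0.308 against 0.0258 to 0.103. Genes of red cell formation were high in this library. Chosen after their values were seen, Klf1, an erythroid factor, was at 58.6 normalized CPM against 3.14 to 11.9, Epor, the erythropoietin receptor, at 45.8 against 2.56 to 9.86, Alas2, an enzyme of erythroid haem synthesis, at 58.5 against 0.791 to 9.16, and Slc4a1, the band 3 anion exchanger of red cells, at 338 against 3.56 to 44.1. Genes of monocytes were low, with Irf8, a monocyte and dendritic cell factor, at 31.4 against 462 to 866 and Csf1r, the receptor of macrophage colony-stimulating factor, at 26.0 against 239.5 to 403. The sum over 19 erythroid genes was 3034 in this library and 418 to 761 in the 14, and that over 10 monocyte and macrophage markers 481 against 1363 to 2209. This library's Xist level was 89.4 and its Bbc3 level 16.1, both inside the range of the others, and what sets it apart was not tested.

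**Figure D4:**
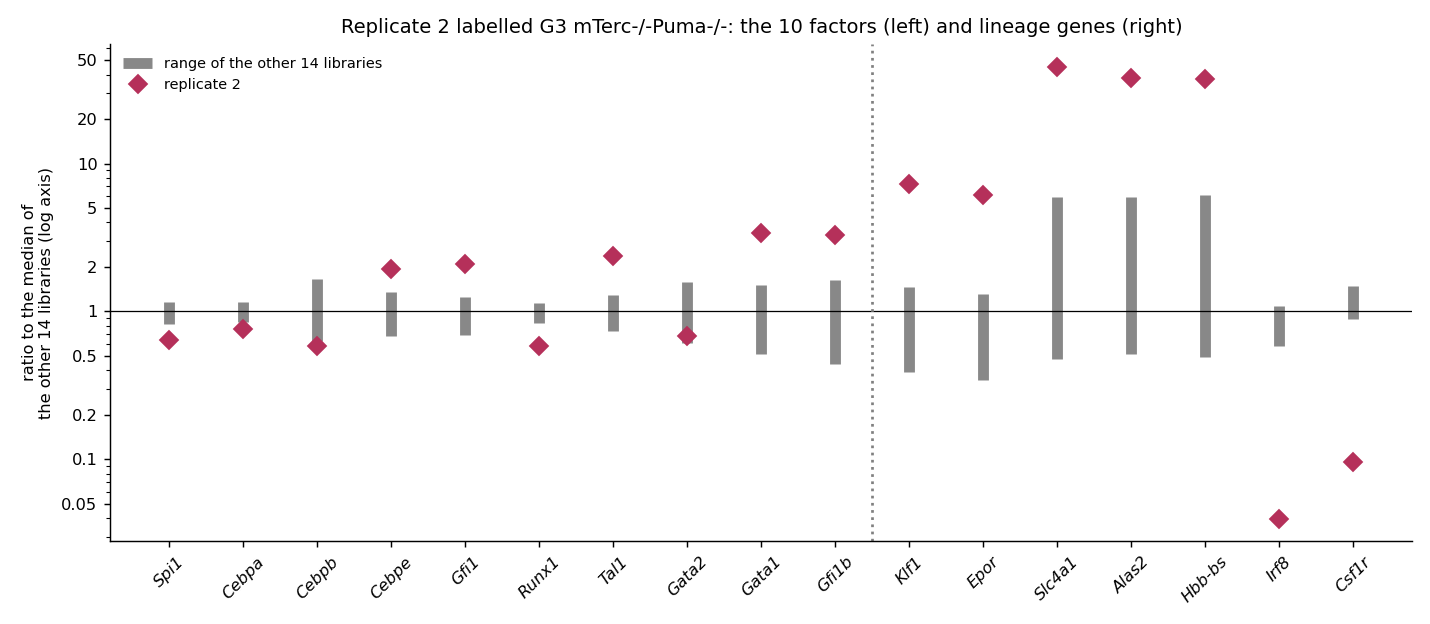
Level in replicate 2 labelled G3 mTerc-/-Puma-/- (diamonds) as a ratio to the median of the other 14 libraries, on a log axis, with the range of those 14 as bars, for the 10 factors at left and 7 lineage genes at right. Diamonds lie above the bar for 5 factors, below it for 4 and within it for Gata2.

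Genes that work with the factors were also read from lists. Of 18 cofactors and partners, 17 were tested and 0 passed in any of the 7 comparisons, with list medians between -0.026 and 0.0054 on the log2 scale. Of them 2 had an unadjusted p under 0.05, both in 1 comparison, beside 17.1% of all genes there. These were Cbfb, the partner of RUNX1, with a log2 fold change of 0.16 with an SE of 0.0673 (adjusted p = 0.250) in edgeR between G3 mTerc-/-Puma+/+ and Puma-/-, and Zfpm1, the GATA1 partner FOG1, with -0.50 with an SE of 0.219 (adjusted p = 0.263) in edgeR. Ets1, a factor of lymphoid and other blood cells, was next, at a log2 value of 0.41 with an SE of 0.193 between Puma-/- and WT, which did not pass. Of 10 paralogs, 9 were tested and 0 passed, with 0 to 3 at an unadjusted p under 0.05 in a comparison, beside 3.86% to 17.1% of all genes. The 3 were between G3 mTerc-/-Puma+/+ and Puma-/-, where the share was 17.1%. Gata3, a T cell factor, had a log2 value of 0.84 with an SE of 0.302 (adjusted p = 0.421) between Puma-/- and WT in edgeR, and Spib, a PU.1 relative of lymphoid cells, 1.13 with an SE of 0.358 (adjusted p = 0.452) in the replicates labelled G3 mTerc-/-Puma-/- relative to G3 mTerc-/-Puma+/+ in the same test. In replicate 2 of that label, Spib was at 1.825 normalized CPM, below the 5.82 to 39.9 of the other 14 libraries. Over all 15 libraries the log2 value of Spib was 0.737. Spic, another PU.1 relative, was at -0.73 with an SE of 0.326 (adjusted p = 0.276) in G3 mTerc-/-Puma+/+ against Puma-/- in edgeR. Of 20 other lineage and stem cell factors, 0 passed, with 2 to 6 at an unadjusted p under 0.05, beside 3.86% to 17.1% of all genes. The 6 were between the replicates labelled G3 mTerc-/-Puma-/- and Puma-/-, where the share was 8.42%. Pax5 and Ebf1, factors of B cells, were at 3.25 with an SE of 0.617 (adjusted p = 0.0773) and 1.65 with an SE of 0.390 (adjusted p = 0.179) in the replicates labelled G3 mTerc-/-Puma-/- against G3 mTerc-/-Puma+/+ in edgeR. In replicate 2, Pax5 was at 0.818 and Ebf1 at 7.18 normalized CPM, and in the 3 replicates compared at 1.92 to 8.28 and 2.73 to 8.21. Over all 15 libraries edgeR gave 2.92 and 1.83. Irf4, a factor of lymphoid and dendritic cells, was at -0.90 with an SE of 0.192 (adjusted p = 0.334) in G3 mTerc-/-Puma+/+ against WT and at -0.76 with an SE of 0.180 (adjusted p = 0.0630) against Puma-/- in the same test.

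Among lists of known target genes, the erythroid, granulocytic and mast cell lists held 0 called genes. The megakaryocytic list held called genes, and is of targets of GATA1, RUNX1 and also FLI1, which is not a factor described here. Of 14 such genes, 7 were lower in G3 mTerc-/-Puma+/+ than in Puma-/- in edgeR's test, namely Itgb3, Gp1ba, Gp1bb, Gp9, Pf4, Vwf and Treml1, with a list median of -1.30 on the log2 scale and 0.801% of all genes called. Pf4, platelet factor 4, was at 80.4 ± 24.5 normalized CPM in Puma-/- (SD, n = 4) and 25.9 ± 7.83 in G3 mTerc-/-Puma+/+ (n = 4), giving a log2 fold change of -1.63 with an SE of 0.271 (adjusted p = 0.0213) in edgeR, and Vwf, von Willebrand factor, at 41.0 ± 6.41 and 15.7 ± 2.11, a change of -1.39 with an SE of 0.217 (adjusted p = 0.0156) in the same test. In the replicates labelled G3 mTerc-/-Puma-/-, 9 of 14 were lower than in Puma-/- (Gp1ba, Gp1bb, Gp9, Gp6, Pf4, Ppbp, Vwf, Treml1 and Rab27b), with a median of -1.79 and 0.306% of all genes called. Over all 15 libraries 3 and 11 of the 14 passed in these comparisons, beside 0.125% and 0.308% of all genes. Gata1, Runx1 and Gfi1b, which are known to act in megakaryocytes, did not pass in either. Between Puma-/- and WT 0 of 14 passed, with 13 at an unadjusted p under 0.05 (beside 10.1% of all genes) and a list median of 1.03. The sum over the list was 551 to 853 in Puma-/-, 235 to 455 in WT, 259.6 to 368 in G3 mTerc-/-Puma+/+ and 235 to 295 in the replicates labelled G3 mTerc-/-Puma-/-, replicate 2 included at 272, so every Puma-/- library lay above all others.

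Of the erythroid targets of GATA1 and TAL1, 19 of 20 were matched and 0 passed in edgeR. Their median log2 fold change was 1.10 between the replicates labelled G3 mTerc-/-Puma-/- and Puma-/-, with 13 at an unadjusted p under 0.05 (beside 8.42% of all genes) and 18 above 0, and 2.93 over all 15 libraries. The globin gene Hbb-bs had 1.86 with an SE of 0.551 (adjusted p = 0.264) in edgeR there, while Gata1 was at -0.28 and Tal1 at -0.43, below 0, in the same fit of 14 libraries. Of 20 granulocytic and myeloid targets of C/EBP, PU.1 and GFI1, 0 passed, with 0 to 6 at an unadjusted p under 0.05 and list medians between 0.047 and 0.165 in the comparisons of 2 genotypes. These counts stood beside 3.86% to 17.1% of all genes. The 6 were between the replicates labelled G3 mTerc-/-Puma-/- and Puma-/-, beside 8.42%. Ltf, the lactoferrin of secondary granules, had log2 fold changes of 2.04 with an SE of 0.757 (adjusted p = 0.735) against WT and 1.69 with an SE of 0.681 (adjusted p = 0.519) against Puma-/- in the replicates labelled G3 mTerc-/-Puma-/- in edgeR. Of 11 mast cell and basophil targets of GATA2, 0 passed, with medians of -0.46 and -0.68 in the 2 mTerc-/- groups against Puma-/- and 7 and 6 genes at an unadjusted p under 0.05, beside 17.1% and 8.42% of all genes. In these comparisons 3 and 2 of the 11 were above 0. Tpsb2, among the 7, was higher in G3 mTerc-/-Puma+/+, at 2.90 ± 5.78 normalized CPM (SD, n = 4) against 0.0355 ± 0.0488 in Puma-/- (n = 4). Its G3 mTerc-/-Puma+/+ libraries ran from 0 to 11.6. Ms4a2 was at -0.76 with an SE of 0.249 (adjusted p = 0.148) and Prss34 at -0.72 with an SE of 0.267 (adjusted p = 0.197) in G3 mTerc-/-Puma+/+ against Puma-/- in edgeR, beside Gata2 at -0.77. Both were named above among the genes most like Gata2 over these same libraries. Their shared direction with it is therefore no separate result. The sum over this list was 2776 to 4243 in Puma-/-, 1951 to 3796 in WT, 1520.2 to 2634 in G3 mTerc-/-Puma+/+ and 1568 to 2915 in the replicates labelled G3 mTerc-/-Puma-/-.

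**Figure D5:**
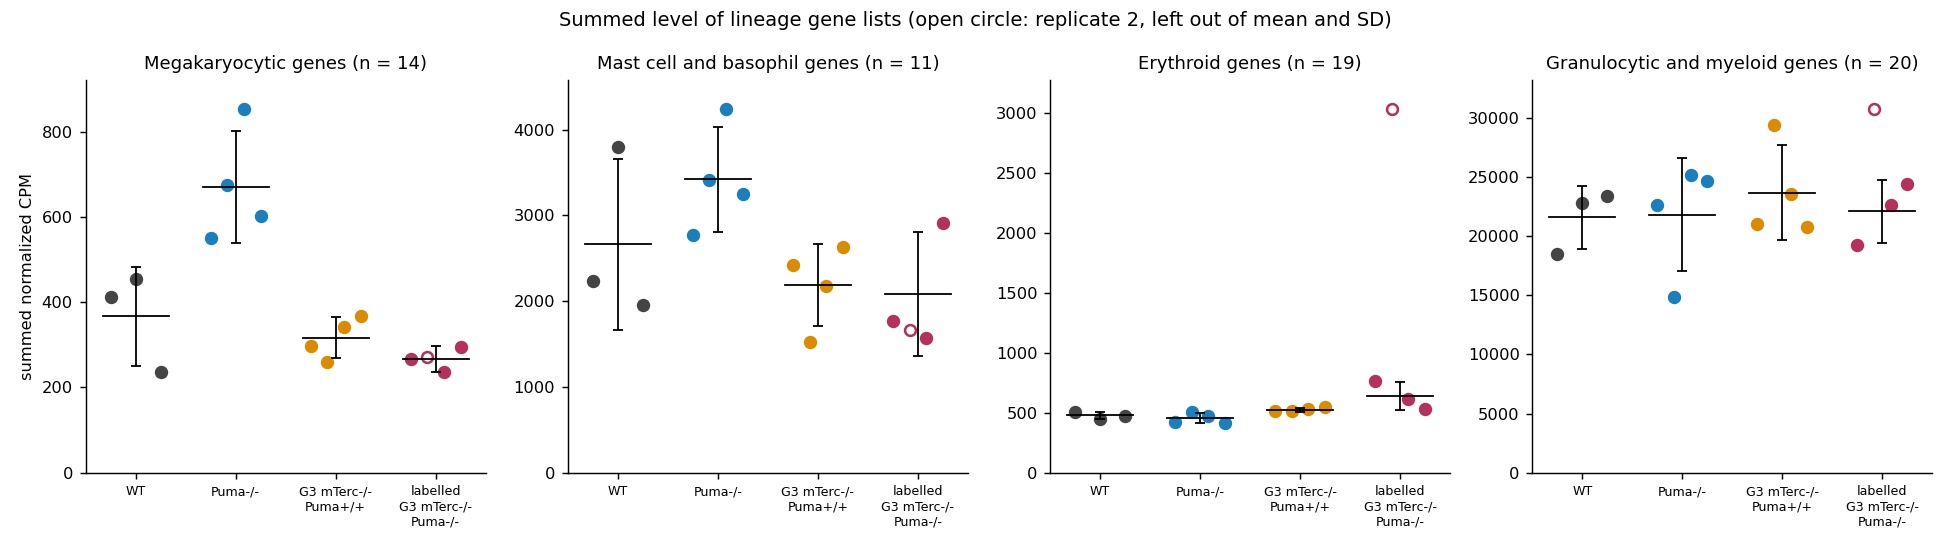
Summed normalized CPM (vertical axes from 0) of 4 lists of lineage genes in every library, by genotype as labelled, with the mean and SD of the filled points and replicate 2 as the open circle. Puma-/- libraries lie above all others for the megakaryocytic genes, and replicate 2 above all others for the erythroid and the granulocytic genes.

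Markers of other cell types that a lineage-negative sample could hold were summed in each library. B cell markers lay at 51.1 to 79.0 in G3 mTerc-/-Puma+/+, 95.4 to 109 in WT, 111 to 126 in Puma-/- and 139 to 216 in the 3 replicates labelled G3 mTerc-/-Puma-/-, with replicate 2 at 85.1. Relative to G3 mTerc-/-Puma+/+, markers called higher in these libraries included Igll1 at 2.95 with an SE of 0.454 (adjusted p = 0.0393), Blnk at 1.79 with an SE of 0.233 (adjusted p = 0.0128) and Ly6d at 1.86 with an SE of 0.265 (adjusted p = 0.0231) in edgeR, beside 0.0738% of all genes. Against Puma-/-, Blnk and Ms4a1 were lower in G3 mTerc-/-Puma+/+, beside 0.801% of all genes. Igll1 was higher than in Puma-/- in the replicates labelled G3 mTerc-/-Puma-/-, beside 0.306%. Over all 15 libraries 0 B cell markers passed in the latter comparison, beside 0.308% of all genes. Then 2 passed between G3 mTerc-/-Puma+/+ and Puma-/- and 2 between the mTerc-/- groups, beside 0.125% and 0.0313%. In replicate 2, Igll1 was at 0.98, Blnk at 8.6 and Ly6d at 7.1 normalized CPM. The other 3 were at 4.1 to 16.3, 12.7 to 18.8 and 58.6 to 66.9. Lists for T and NK cells, monocytes and macrophages, mature neutrophils, plasmacytoid dendritic cells, and stromal and endothelial cells had 0 genes called in the 7 comparisons in edgeR. Against G3 mTerc-/-Puma+/+, all 6 plasmacytoid dendritic cell markers had an unadjusted p under 0.05 in the 3 compared replicates labelled G3 mTerc-/-Puma-/-. This stood beside 6.22% of all genes. Sums over this list were 313 to 353 in those 3 replicates, while G3 mTerc-/-Puma+/+ had 162 to 238. Replicate 2, outside that fit, went the other way, at 129 and below the other 14 libraries. Mature neutrophil markers ranged from 304 in Puma-/- replicate 2 to 2511 in replicate 3 labelled G3 mTerc-/-Puma-/- over the 14 libraries, and were at 3397 in replicate 2 of that label. Stromal and endothelial markers ran from 411 to 1865 over the 14 libraries, and were at 1949 in replicate 2. Every list had counts for all of its matched genes in at least 1 library. The part of these cells in the factors' levels was not tested.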

How the data were processed

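The authors deposited raw read counts per gene for each of the 15 libraries, without normalization. Poly(A) RNA had been sequenced in pairs with a stranded kit. Per the submitters' processing notes, reads were trimmed with Trimmomatic 0.38 and aligned with STAR 2.5.2b to GRCm38, and the annotation release and strand setting of the counting are not given in the sources used here. The 102790519 to 158367059 counts per library let 0 counts stand for at most 0.0292 CPM, which covers counting error only.

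Counts were fitted with edgeR 4.0.16 in R 4.3.3 (TMM factors, filterByExpr, quasi-likelihood F-test) in one model of the 4 genotypes over 14 libraries, replicate 2 labelled G3 mTerc-/-Puma-/- left out, and p-values were adjusted with Benjamini-Hochberg over the 18983 genes tested at a threshold of 0.05. Scripts were tested on simulated data. Log2 levels used a prior count of 2. Exact permutation tests used scipy 1.17.1. Correlations and their permutation p were computed with numpy 2.4.6, with ranks for rho from scipy. Alternatives were all 15 libraries, library size alone, RLE factors, no filter, DESeq2 1.42.0, limma-voom (limma 3.58.1), the compared groups alone, a replicate block, Xist as a covariate and leaving out each library. All 10 factors were named. Of the other lists, genes that passed were named, of cofactors, paralogs and other factors also the 3 with the smallest unadjusted p in any comparison of 2 genotypes, and for each factor up to 3 genes of highest r. Kit, Mpo, Ltf, Hbb-bs, Ms4a2, Prss34 and the genes shown for replicate 2 were added after their values were seen. A withheld item that passed is not reported here. The members and lists were chosen with earlier results of these data known. Promoter sequences came from RefSeq on GRCm38.p6.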

Additional observations from a re-analysis of the deposited data

Results flagged for a closer look

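Within the 4 libraries labelled G3 mTerc-/-Puma-/-, replicate 2 lay far from the other 3 for Gfi1b at 42.6 normalized CPM, for Gata1 at 50.5 and for Tal1 at 89.7, by Dixon's test of the gap to the nearest library. These were 3 flags in 30 groups of 4 libraries, all in replicate 2, and chance flags about 1 in 20 groups. In the same library, which is outside the 14 libraries compared, Cebpe at 129 and Gfi1 at 285 normalized CPM, like Gfi1b at 42.6, Gata1 at 50.5 and Tal1 at 89.7, were above every WT library. What sets this library apart was not tested.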

How the results depend on the processing

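Of the 70 log2 fold changes of the 10 factors, 0 passed in edgeR or limma-voom under any alternative, and 1 passed with DESeq2 (Gata2, G3 mTerc-/-Puma+/+ against Puma-/-), where 1 factor was thus called. Of the 45 correlations, 15 passed, and 5 did as deviations from genotype means and 6 without the 2 farthest libraries, the latter over fewer samples. The sign turned for the log2 fold changes that follow, and the cause was not tested. With library size alone, Cebpa and Cebpb were at 0.013 and 0.0079 in G3 mTerc-/-Puma+/+ against WT, and Spi1 and Runx1 at 0.00086 and 0.0029 between the mTerc-/- groups. With Xist as a covariate, Gfi1b was at 0.036 in G3 mTerc-/-Puma+/+ against WT, Runx1 at 0.058 against Puma-/-, and Gata2 at -0.0051 between the mTerc-/- groups. Limma-voom gave Gfi1b 0.027 between the mTerc-/- groups, and no filter gave Cebpa 0.0025 in the interaction. Over 15 libraries, the values labelled G3 mTerc-/-Puma-/- against WT were -0.17 for Cebpb, 0.57 for Gfi1b and 0.42 for Tal1. Against Puma-/- they were 0.17 for Cebpe, 0.33 for Gfi1, 0.21 for Gfi1b, -0.063 for Spi1, 0.38 for Gata1 and 0.11 for Tal1, and against G3 mTerc-/-Puma+/+ -0.17 for Cebpb, 0.28 for Cebpe, 0.20 for Gfi1, 0.71 for Gfi1b and 0.37 for Tal1. In the interaction they were 0.35 for Gfi1b, -0.026 for Spi1, -0.11 for Runx1, 0.54 for Gata1 and 0.062 for Tal1.

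Replicate numbers did not pair the libraries, as 3 of 18 same-numbered pairs correlated over 0.1 (-0.253 to 0.175) and 3 of 14 libraries were closest to their own number. With a replicate block 0 factors were called, Cebpa and Cebpb were at 0.0042 and 0.028 in G3 mTerc-/-Puma+/+ against WT, and genes called between G3 mTerc-/-Puma+/+ and Puma-/- went from 152 to 43.

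Leaving out 1 library turned the sign within these ranges. In G3 mTerc-/-Puma+/+ against WT they were -0.085 to 0.074 for Cebpa, -0.26 to 0.16 for Cebpb, -0.36 to 0.088 for Gata1, -0.44 to 0.24 for Gfi1b, -0.11 to 0.00024 for Spi1 and -0.084 to 0.14 for Tal1. Against Puma-/- they were -0.29 to 0.0089 for Cebpe and -0.064 to 0.022 for Runx1. For the libraries labelled G3 mTerc-/-Puma-/- against WT they were -0.099 to 0.18 for Cebpb, -0.097 to 0.35 for Gata1 and -0.50 to 0.17 for Gfi1b. Against Puma-/- they were -0.086 to 0.044 for Cebpa, -0.37 to 0.023 for Cebpe, -0.16 to 0.12 for Gfi1, -0.18 to 0.050 for Runx1 and -0.00042 to 0.13 for Spi1. Between the mTerc-/- groups they were -0.11 to 0.26 for Cebpb, -0.25 to 0.14 for Cebpe, -0.11 to 0.34 for Gata2, -0.30 to 0.14 for Gfi1b, -0.16 to 0.067 for Runx1 and -0.10 to 0.030 for Spi1. In the interaction they were -0.095 to 0.065 for Cebpa, -0.37 to 0.080 for Gata1 and -0.089 to 0.14 for Runx1.

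Over all genes, the number called ran over the alternatives from 11 to 137 for Puma-/- against WT, where 15 were called, from 1 to 46 (7) and from 1 to 89 (12) for the mTerc-/- groups against WT, from 18 to 1004 (152) and from 18 to 287 (58) against Puma-/-, from 2 to 172 (14) between them and from 5 to 64 (10) for the interaction, each highest with DESeq2.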
